A study of Caenorhabditis elegans with 12 samples.

Results

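The proneural basic helix-loop-helix (bHLH) factors are a set of transcription factors that start neuronal differentiation, and 7 of their genes were followed here across 12 RNA sequencing libraries of whole Caenorhabditis elegans. The set holds cnd-1 (NeuroD family), ngn-1 (neurogenin family), lin-32 (atonal family), hlh-3, hlh-14 and hlh-4 (achaete-scute family), and hlh-2, the E protein that pairs with them. They were chosen by name, and all 7 were found among the 46748 gene identifiers of the count table. No measured value entered the choice, although the set was drawn up with earlier results of these data known.

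Proneural factors bind DNA as heterodimers of a tissue-restricted partner and the broadly expressed E protein, at short sites called E-boxes. In the worm they act mostly in dividing neuroblasts and newly born neurons of the embryo and young larva, and some remain on in single neuron types. An adult hermaphrodite carries fertilized eggs, so a whole-animal sample can hold transcripts of embryos as well as of the adult nervous system. hlh-2 is also known from the gonad, where it acts in the anchor cell and the distal tip cells.

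All animals were hermaphrodites with a labelled age of 5 days, taken whole, in 4 groups of 3 libraries. CF1038 makes up 6 libraries, and all its animals lack daf-16 function through the deletion allele mu86, daf-16 being the FOXO factor that insulin signalling restrains. They were labelled with the perturbation bcat-1 (RNA interference by feeding against the branched-chain amino acid aminotransferase gene) or with L4440, the empty feeding vector. The other 6 libraries are TU3311, whose sid-1 transgene the labels give as a means of neuronal RNAi, labelled daf-7 (a TGF-beta gene that keeps larvae out of the dauer stage) or L4440. No group has a wild-type daf-16 gene together with bcat-1 RNAi, and none combines TU3311 with bcat-1 RNAi, so strain and RNAi target cannot be told apart between the RNAi groups. The labels name neither the promoter of the transgene nor the source of replicate libraries (separate cultures or not), so that p-values measure only the spread between these libraries.

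Libraries held 30130249 to 45343624 counts assigned to genes. In daf-16(mu86), bcat-1 stood at 131 to 151 CPM (TMM-scaled counts-per-million) on vector and at 166 to 222 CPM where its RNAi is labelled. In TU3311, daf-7 stood at 6.21 to 12.1 CPM on vector and at 31.4 to 137 CPM where its RNAi is labelled. Neither was lower where its RNAi is labelled, and directions below follow the labels as they stand. daf-16 was at 77.4 to 93.9 CPM over the 6 CF1038 libraries and at 155 to 210 CPM over the 6 of TU3311. Replicate 1 of both TU3311 groups (libraries 7 and 8) lay far from the other 4 libraries of that strain, and results that rest on this pair are also given without it.

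In short, 6 of the 7 genes were higher in every library labelled bcat-1 RNAi than in every vector library of daf-16(mu86). Of all genes tested, 29.5% were likewise higher without overlap and 25.1% lower. cnd-1 and lin-32 passed the test (edgeR, adjusted p under 0.05 over all genes tested), where 4.18% of all genes were called higher. hlh-2, the common partner of the other 6, was slightly lower with labelled bcat-1 RNAi and did not pass. In TU3311 no member passed the test of daf-7 RNAi against vector. In bulk samples of whole animals, fewer cells of a type and less RNA per cell cannot be told apart.

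**Figure D1:**
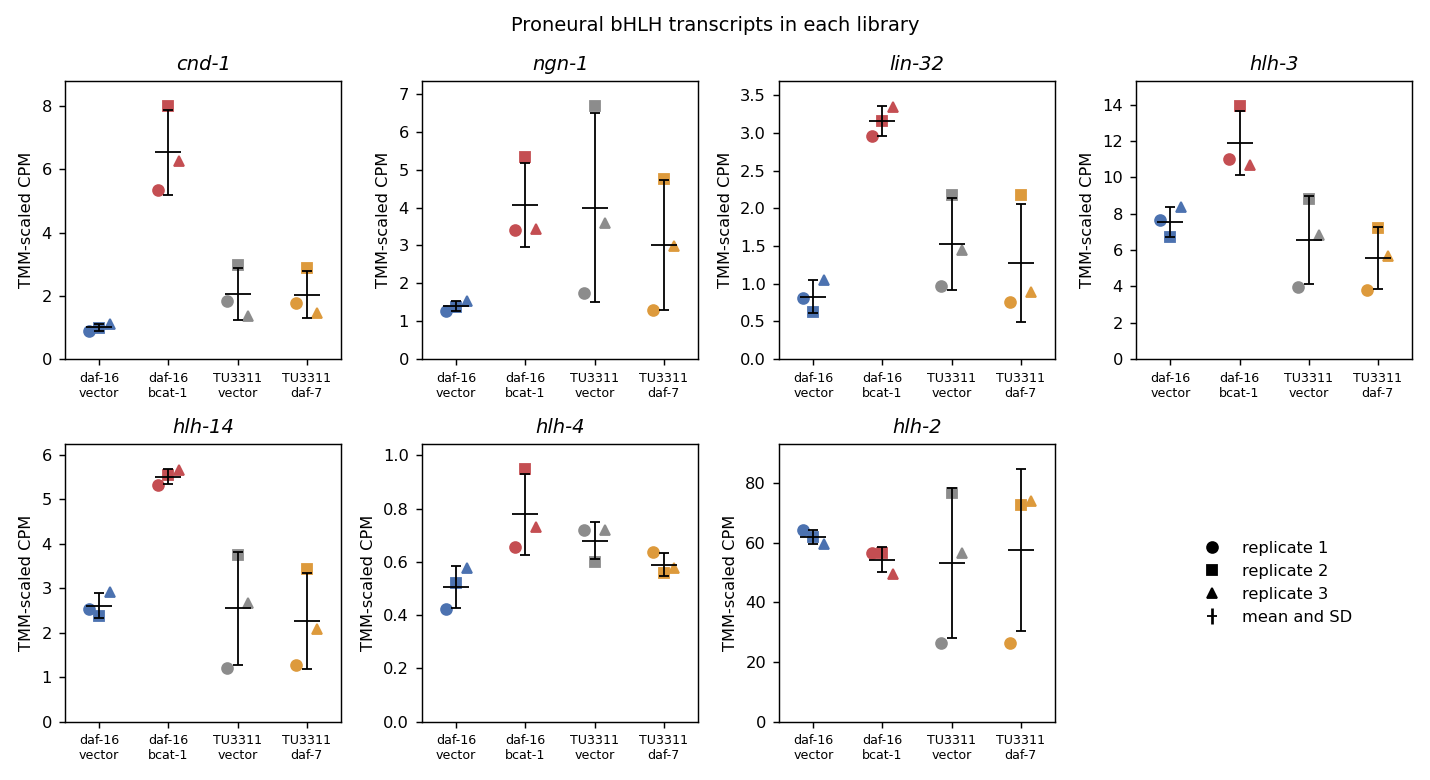
TMM-scaled CPM (vertical axis, from 0, own scale in each panel) of the 7 proneural bHLH genes in the 12 libraries, by group (horizontal axis; point shape is the replicate, the dash and bar are the mean and SD of 3 libraries). In 6 panels the 3 libraries labelled bcat-1 RNAi lie above the 3 daf-16(mu86) vector libraries, as for 29.5% of all genes tested. hlh-2 does not rise, and replicate 1 of both TU3311 groups is the lowest point of its group for ngn-1, lin-32, hlh-2, hlh-3 and hlh-14.

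cnd-1 is the worm NeuroD gene, known for its part in the fates of embryonic ventral cord motor neurons (WBGene00000561, WBcel235 chromosome III, 5240591 to 5244639, minus strand, 3 exons). In daf-16(mu86) its level was 0.885, 0.988 and 1.12 CPM on vector and 5.34, 8.00 and 6.27 CPM with labelled bcat-1 RNAi, from 23 to 38 and 211 to 292 raw counts. The groups were far apart, and the lowest library labelled RNAi had over 4 times the level of the highest vector library. The log2 change was 2.71 ± 0.36 (SE), or 6.52-fold (edgeR adjusted p = 0.00267, 17th of 16618 genes by p). This call held in all 16 other settings (adjusted p from 4.46e-08 to 0.0378), each replicate left out in turn among them. In TU3311, cnd-1 stood at 1.84, 2.98 and 1.37 CPM on vector and at 1.78, 2.87 and 1.47 CPM with labelled daf-7 RNAi. These ranges overlapped almost fully (log2 change -0.01 ± 0.33, edgeR adjusted p = 1.00).

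lin-32 encodes the atonal-type factor that is needed to make touch receptor neurons and other sensory lineages (WBGene00003018, chromosome X, 2229055 to 2230122, minus strand, 3 exons). It stood at 0.808, 0.624 and 1.05 CPM on vector in daf-16(mu86) and at 2.96, 3.16 and 3.35 CPM with labelled bcat-1 RNAi, from 21 to 31 and 110 to 156 counts. Here too no library of one group reached the other. The rise was 3.82-fold (log2 1.93 ± 0.42, edgeR adjusted p = 0.0227). That call is less firm than that of cnd-1. It was missed with RLE factors (adjusted p = 0.0530) and without any one of the 6 replicates compared (0.0547 to 0.129), while the log2 change stayed at 1.75 to 2.09 in those 6 fits. In TU3311 the levels were 0.967, 2.18 and 1.44 CPM on vector and 0.753, 2.18 and 0.896 CPM with labelled daf-7 RNAi (log2 change -0.26 ± 0.41, adjusted p = 1.00), with overlap.

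ngn-1, the single neurogenin gene, is known for its role in the pharyngeal neuron MI and in embryonic head neurons (WBGene00003595, chromosome IV, 2626062 to 2628271, minus strand, 3 exons). It stood at 1.27, 1.38 and 1.53 CPM on vector in daf-16(mu86) and at 3.42, 5.35 and 3.44 CPM with labelled bcat-1 RNAi. The groups did not overlap, yet the log2 change of 1.54 ± 0.49 missed the threshold (edgeR adjusted p = 0.0930). In an edgeR fit with a block for each pair of neighbouring libraries (1 and 2, 3 and 4, and so on) it passed (adjusted p = 6.79e-04), as it did without libraries 7 and 8 (0.00320). In these fits 25.7% and 20.9% of all genes were called higher. The labels state no pairing, and the pairs of the block were read from the values. In TU3311 ngn-1 varied more within a group than between groups, at 1.73, 6.68 and 3.58 CPM on vector and 1.30, 4.75 and 2.97 CPM with labelled daf-7 RNAi. The log2 change there was -0.41 ± 0.47 (adjusted p = 1.00).

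hlh-14 and hlh-3 are achaete-scute genes, the first known from the lineage that makes PVQ, HSN and PHB neurons and the second from the differentiation of HSN, the egg-laying motor neuron. hlh-14 (WBGene00001958, chromosome II, 5737785 to 5738895, minus strand, 3 exons) stood at 2.54, 2.37 and 2.92 CPM on vector and 5.31, 5.55 and 5.65 CPM with labelled bcat-1 RNAi. hlh-3 (WBGene00001950, chromosome II, 9086608 to 9087908, plus strand, 2 exons) stood at 7.65, 6.71 and 8.36 CPM on vector and 11.0, 13.9 and 10.7 CPM with labelled bcat-1 RNAi. Neither gene's groups overlapped, and neither passed. The log2 change of hlh-14 was 1.08 ± 0.39 (edgeR adjusted p = 0.135), and with the block the adjusted p was 0.00121. For hlh-3 the log2 change was 0.65 ± 0.31 (edgeR adjusted p = 0.240), and with the block the adjusted p was 0.00926. Without libraries 7 and 8 both passed (adjusted p = 0.00413 and 0.0134). In TU3311 both genes overlapped between groups. hlh-14 was at 1.21, 3.75 and 2.67 CPM on vector and 1.28, 3.42 and 2.08 CPM with labelled daf-7 RNAi. The values of hlh-3 were 3.98, 8.80 and 6.84 CPM on vector and 3.81, 7.24 and 5.66 CPM with labelled daf-7 RNAi.

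hlh-4 is the achaete-scute gene known for the identity of ADL, a nociceptive sensory neuron (WBGene00001951, chromosome III, 9737472 to 9739054, minus strand). It was the scarcest member by count, with 11 to 34 raw counts per library, so single values carry a large counting error. It stood at 0.423, 0.520 and 0.577 CPM on vector and 0.658, 0.949 and 0.731 CPM with labelled bcat-1 RNAi in daf-16(mu86). These did not overlap, and the log2 change of 0.61 ± 0.30 did not pass (edgeR adjusted p = 0.254), nor did it in any of 16 other settings (0.0713 to 0.590). In TU3311 it stood at 0.720, 0.600 and 0.721 CPM on vector and 0.638, 0.557 and 0.576 CPM with labelled daf-7 RNAi. The annotation places the non-coding genes T05G5.14 and T05G5.16 within the bounds of hlh-4, and neither shares an exon base with it. The other 6 members overlap no annotated gene.

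hlh-2, the homologue of Daughterless and of the mammalian E proteins (WBGene00001949, chromosome I, 7190788 to 7193920, minus strand, 6 exons), was by far the most counted member. It stood at 64.1, 61.8 and 59.4 CPM on vector in daf-16(mu86) and at 56.7, 56.7 and 49.4 CPM with labelled bcat-1 RNAi, from 1667 to 2379 counts over these 6 libraries. The groups did not overlap, but the log2 change of -0.19 ± 0.38 did not pass (edgeR adjusted p = 0.768) and turned to 0.015 with library totals as scaling. Its SE rests on 1 spread shared by all 4 groups. The SD of hlh-2 was 3.78% and 7.74% of the mean in these 2 groups, and 47.3% and 47.0% in those of TU3311. hlh-2 passed in none of 16 other settings. With the block the adjusted p was 0.180. Across TU3311 the values were 26.5, 76.5 and 56.7 CPM on vector and 26.4, 72.5 and 74.0 CPM with labelled daf-7 RNAi. The low value of each group is library 7 or library 8.

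**Figure D2:**
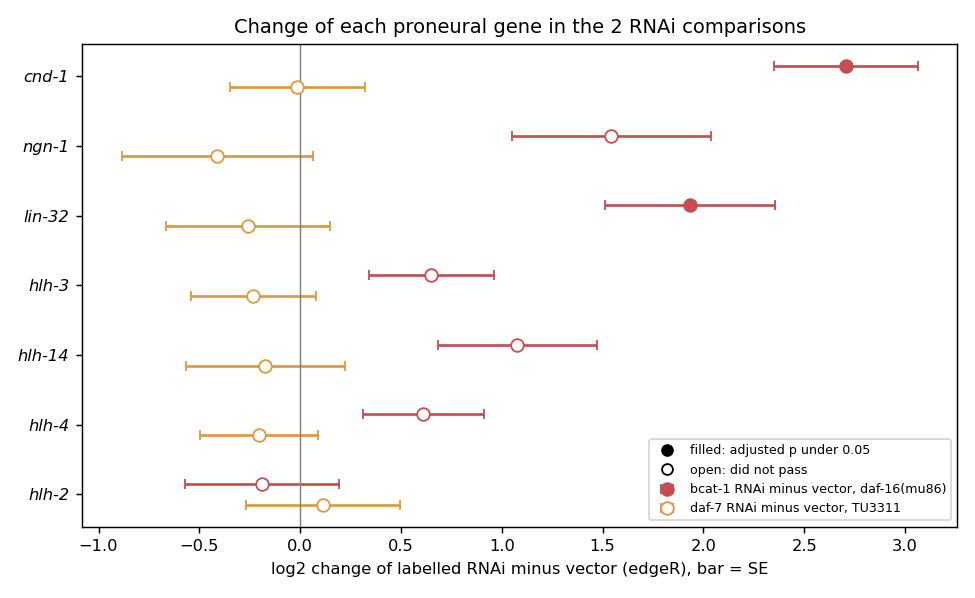
Log2 change (horizontal axis) of each proneural gene in the libraries labelled RNAi against vector of the same strain, by edgeR with all 12 libraries in 1 fit. Bars are the SE, from a spread shared by all 4 groups, and filled points had an adjusted p under 0.05. cnd-1 (2.71) and lin-32 (1.93) are filled in the daf-16(mu86) comparison, hlh-2 lies at -0.19, and all 7 TU3311 changes lie between -0.41 and 0.11.

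Counted over the set, 2 of 7 members were called higher with labelled bcat-1 RNAi and none lower, where 4.18% of the 16618 genes tested were called higher and 0.144% lower. With the block 5 of 7 were called higher, where 25.7% of all genes were called higher and 18.5% lower. cnd-1, lin-32, ngn-1, hlh-14 and hlh-3 were those 5, and the same count came from the fit without libraries 7 and 8, where 20.9% of all genes were called higher and 14.8% lower, and from the fit to the 6 daf-16(mu86) libraries alone (24% higher and 16.5% lower). In 6 of 7 members the groups did not overlap with the libraries labelled RNAi higher, and in 1 (hlh-2) with them lower, while 29.5% of all genes did the first and 25.1% the second. The median log2 change was 1.08 over the 7 members and 0.16 over all genes tested. Scaling moved that median of all genes by -0.20 with RLE factors, by 0.15 with upper-quartile factors and by 0.20 with library totals. Measures of whole libraries moved with these groups as well. A count of 10 was reached by 13542 to 14693 genes on vector and by 15468 to 16028 genes with labelled bcat-1 RNAi, and TMM factors were 0.863 to 0.899 and 0.966 to 1.06. Their part in the changes of the members was not tested.

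Neighbouring library numbers show how even the changes were. Within the pairs of daf-16(mu86), cnd-1 was 5.60 to 8.10 times as high in the library labelled RNAi, lin-32 3.18 to 5.07 times, ngn-1 2.25 to 3.88 times and hlh-14 1.93 to 2.35 times. hlh-3 was 1.28 to 2.08 times and hlh-4 1.27 to 1.83 times as high. The pair of libraries 3 and 4 gave the largest ratio for each of these 6 genes. hlh-2 had ratios of 0.831 to 0.916 in the same pairs. In the TU3311 pairs the ratios ran from 0.621 for lin-32 to 1.31 for hlh-2, and ngn-1, hlh-3 and hlh-4 were below 1 in all 3 pairs, as was lin-32 with 1 pair level at 1.000. CPM higher in all daf-16(mu86) pairs and lower in all TU3311 pairs, as for these 4, was seen in 6.31% of all genes tested.

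**Figure D3:**
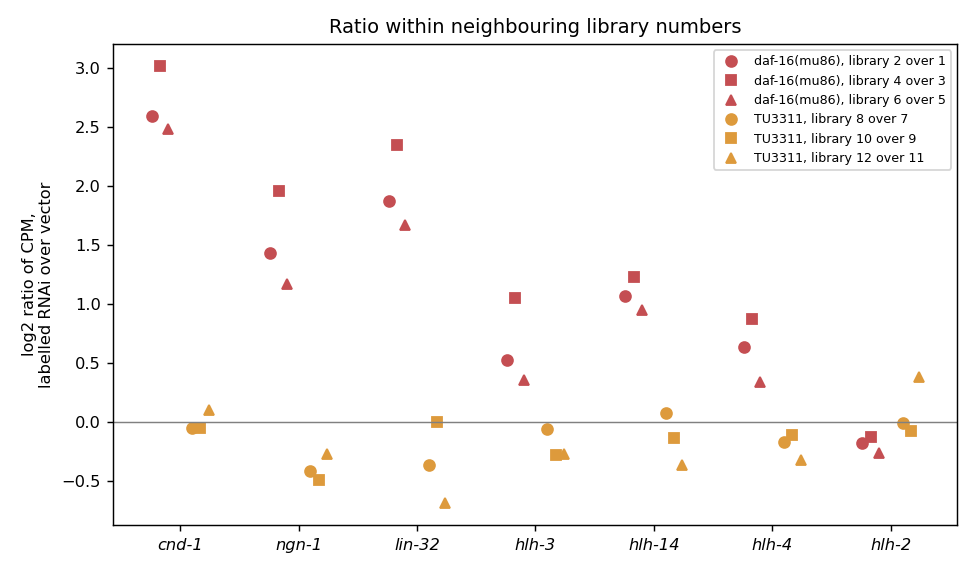
Log2 ratio of CPM (vertical axis), library labelled RNAi over the vector library with the neighbouring number, for each proneural gene (horizontal axis); red points are the 3 pairs of daf-16(mu86) and orange points those of TU3311. For cnd-1, ngn-1, lin-32, hlh-3, hlh-14 and hlh-4 all red points lie above 0 (ratios of 1.27 to 8.10), and all orange points lie near 0 or below it.

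Whether the 2 responses differ was tested as the difference of the 2 log2 changes, which share no libraries. The difference was largest for cnd-1 (2.72 ± 0.48, edgeR adjusted p = 0.0570), followed by lin-32 (2.19 ± 0.58, adjusted p = 0.141) and ngn-1 (1.95 ± 0.68, adjusted p = 0.259). None of the 7 passed, where 0.102% of all genes were called higher and 0.00602% lower. With the block 5 of 7 passed, where 15% of all genes were called higher and 11.2% lower. In that fit the adjusted p was 0.00109 for cnd-1, 0.00335 for lin-32, 0.00334 for ngn-1, 0.00876 for hlh-14 and 0.0226 for hlh-3. Without libraries 7 and 8 the same 5 genes passed (adjusted p from 0.0181 to 0.0430), where 7.65% of all genes were called higher and 5.59% lower. hlh-2 had a difference of -0.30 ± 0.54 and hlh-4 one of 0.81 ± 0.42, and neither passed in any of these fits.

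For daf-7 RNAi in TU3311, 0 of 7 members were called, and 0% of all genes were (edgeR; 77 of 16618 genes had an unadjusted p under 0.05, and 3 genes were called by DESeq2). The median log2 change was -0.20 over the members and 0.01 over all genes. The groups of all 7 members overlapped, where 0.65% of all genes were higher and 0.644% lower without overlap. For 6 of the 7 the difference between the group means was smaller than the SD of either group, and hlh-4 stood at 0.680 ± 0.0694 and 0.590 ± 0.0426 CPM (SD, n = 3). ngn-1, hlh-2, hlh-3 and hlh-14 were lower in libraries 7 and 8 than in each of the other 4 TU3311 libraries, cnd-1 and lin-32 were not, and hlh-4 was not lower there. How many of all genes were lower in libraries 7 and 8 in this way was not counted, so this is not read as a trait of the members. Without libraries 7 and 8 again no member was called, and 0.00605% of all genes were called lower.

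Between the strains on vector, cnd-1 and ngn-1 were lower in daf-16(mu86) without overlap, at 0.998 ± 0.118 against 2.06 ± 0.824 CPM and 1.39 ± 0.130 against 4.00 ± 2.50 CPM (SD, n = 3). Their log2 differences of -1.04 ± 0.35 and -1.52 ± 0.49 missed the threshold (edgeR adjusted p = 0.0706 and 0.0677). None of the 7 members was called, where 0.132% of all genes were called higher and 6.5% lower in daf-16(mu86), and hlh-4 was the third member without overlap (lower; 30.7% of all genes were lower and 25.8% higher without overlap). Without libraries 7 and 8, cnd-1, ngn-1 and lin-32 were called lower (adjusted p = 0.0372, 0.00574 and 0.0345), where 15.7% of all genes were called lower and 15.8% higher. hlh-2, hlh-3 and hlh-14 differed by 0.22, 0.21 and 0.04, values whose sign turned with upper-quartile factors and with library totals. The median log2 difference was -0.42 over the members and -0.38 over all genes. This comparison and that of bcat-1 RNAi use the same daf-16(mu86) vector libraries, so a low value there enters both. Library numbers 1 to 6 are all daf-16(mu86) and 7 to 12 all TU3311. The titles carry a different name string for each strain where the descriptions give a single one. The labels do not say what that string stands for, so strain and anything it marks cannot be told apart.

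By group mean, cnd-1 ran from daf-16(mu86) with labelled bcat-1 RNAi (6.54 ± 1.35 CPM) through TU3311 vector (2.06) and TU3311 with labelled daf-7 RNAi (2.04 ± 0.732) to daf-16(mu86) vector (0.998). Only the middle neighbours of that order overlapped. lin-32 had the same order of groups, at 3.16 ± 0.196, 1.53 ± 0.609, 1.27 ± 0.784 and 0.828 ± 0.215 CPM, and only its top group stood clear of the next. hlh-3 and hlh-14 were likewise highest and clear of the next group with labelled bcat-1 RNAi (11.9 ± 1.77 and 5.51 ± 0.173 CPM), and their other 3 groups overlapped. For ngn-1, hlh-4 and hlh-2 each group overlapped its neighbours in the order. How many of all genes have a top group clear of the next was not counted. Against daf-16(mu86) vector alone, 29.5% of all genes were higher without overlap with labelled bcat-1 RNAi.

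Levels of different genes were compared per kilobase of annotated exon. On that scale hlh-2 stood at a mean of 37.1 CPM per kb in daf-16(mu86) vector and 32.6 CPM per kb with labelled bcat-1 RNAi. hlh-3 was next at 9.35 and 14.7 CPM per kb, then hlh-14 at 3.77 and 7.96 CPM per kb. cnd-1, with 3.318 kb of annotated exon, was the lowest of all on vector at 0.301 CPM per kb and reached 1.97 CPM per kb. Each mean has the same relative SD as its CPM. Summed per kb, the 6 partner genes came to 46.7 ± 6.66% of hlh-2 on vector and 111 ± 12.4% with labelled bcat-1 RNAi (SD, n = 3). The single libraries ran from 41.8 to 54.3% and from 97.5 to 121%, without overlap. In TU3311 the sum was 67.9 ± 7.36% of hlh-2 on vector and 54.9 ± 15.9% with labelled daf-7 RNAi, and these overlapped. Libraries 7 and 8 had 75.8% and 68.7%, although both sides of the ratio were low in them.

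The members varied together to unequal degrees across the 12 libraries. hlh-3 and hlh-14 were the closest pair, with a Pearson correlation of log2 CPM of 0.969, and hlh-14 was the gene most like hlh-3 among all genes tested. cnd-1 and lin-32 correlated at 0.915, while cnd-1 and hlh-2 did so at -0.000386. Most like cnd-1 were fmil-1 (0.981), unc-86 (0.965) and C27A2.8 (0.962). unc-86 encodes a POU homeodomain factor of many neuron types that acts downstream of lin-32 in the touch receptor lineage. The nearest genes to lin-32 were Y53F4B.43, Y17G9B.2 and zip-8 (0.978, 0.973 and 0.965), and to ngn-1 they were aly-1, fbxb-77 and fbxb-107 (0.977, 0.973 and 0.971). T05H10.4, ccar-1 and spat-3 were nearest to hlh-2 (0.994, 0.990 and 0.989), and ZK1240.8, F54D5.15 and rpm-1 to hlh-4 (0.942, 0.929 and 0.926). Y17G7B.20 was among the 3 nearest of both hlh-3 (0.953) and hlh-14 (0.977), as was an unnamed gene, WBGene00014613 (0.940 and 0.978), and gadr-4 was the third for hlh-14 (0.971). These values are a description over 12 libraries that share groups and pairs. They mix differences between groups with those within groups. For deviations of log2 CPM from group means, hlh-2 correlated with ngn-1 at 0.916, hlh-3 at 0.903 and hlh-14 at 0.900. With lin-32 it did so at 0.679, with cnd-1 at 0.281 and with hlh-4 at -0.373.

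The genome holds many bHLH genes besides the 7 members, some of them of the same families. Of 34 listed here, 12 had too few counts to be tested. With labelled bcat-1 RNAi 0 of the 22 tested were called, where 4.18% of all genes were called higher and 0.144% lower. The median log2 change was 0.25, where that of all genes was 0.16. With the block 5 of the 22 were called higher and 1 lower, where 25.7% and 18.5% of all genes were. hlh-6, an achaete-scute gene of the pharyngeal glands, had the smallest p and did not pass (0.402 ± 0.102 and 0.750 ± 0.179 CPM, log2 change 0.88 ± 0.35, edgeR adjusted p = 0.161). hlh-13, the worm homologue of PTF1A, was lower in daf-16(mu86) than in TU3311 on vector at 0.165 ± 0.151 against 0.886 ± 0.577 CPM (log2 -2.43 ± 0.68, edgeR adjusted p = 0.0492). It was the 1 gene of the 22 called lower there, where 6.5% of all genes were, and with only the vector libraries in the fit none of the list was called.

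Notch signalling limits proneural activity between neighbouring cells through DSL-type ligands and the receptors LIN-12 and GLP-1. Of 23 genes tested, 2 were called higher with labelled bcat-1 RNAi and none lower (median log2 change -0.11), where 4.18% of all genes were called higher and 0.144% lower, and both encode DSL-type ligand-like proteins. dsl-6 rose from 1.43 ± 0.254 to 4.15 ± 0.257 CPM (SD, n = 3; log2 1.54 ± 0.28, edgeR adjusted p = 0.00988). dsl-3 rose from 11.8 ± 5.81 to 36.7 ± 3.20 CPM (log2 1.64 ± 0.40, adjusted p = 0.0383). With the block 4 were called higher and 7 lower, where 25.7% and 18.5% of all genes were. Of 8 gonad genes listed for a link to HLH-2, not all of them established targets, none passed (median 0.61, and 4 higher and 1 lower with the block). cdh-3, a cadherin gene of the anchor cell, came closest at 19.5 ± 1.95 and 35.9 ± 10.8 CPM (log2 change 0.88 ± 0.24, adjusted p = 0.0532).

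Factors that fix neuron identity act after the proneural step. Of 38 tested, 12 were called higher with labelled bcat-1 RNAi and none lower (median log2 change 0.84, where that of all genes was 0.16; 4.18% of all genes were called higher, and 23 of the list were with the block, where 25.7% of all genes were). unc-86 rose from 3.74 ± 0.972 to 21.6 ± 5.40 CPM (log2 2.53 ± 0.29, edgeR adjusted p = 0.00101), and it also passed the test of the difference between the responses (2.55 ± 0.39, adjusted p = 0.0229). The Pax6 gene vab-3 (log2 1.99 ± 0.30), the zinc finger gene pag-3 (2.35 ± 0.36) and the zinc finger gene egl-46 (1.64 ± 0.28) rose as well. Of 11 touch receptor neuron genes, 2 were called higher, the tubulin genes mec-7 (1.74 ± 0.27) and mec-12 (1.39 ± 0.27), with a list median of 0.75. With the block 9 of the 11 were called higher and 1 lower.

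Markers of the cells that could carry these transcripts are given against the 4.18% of all genes called higher with labelled bcat-1 RNAi (25.7% higher and 18.5% lower with the block). Of 24 pan-neuronal genes, 2 were called higher, unc-10 (log2 1.45 ± 0.26) and tbb-4 (2.14 ± 0.47), with a median of 0.63. With the block 18 were called higher and 1 lower. Without overlap 19 of the 24 were higher and 2 lower, where 29.5% and 25.1% of all genes were. Mean log2 CPM of the list, minus its mean over 12 libraries, was -0.49 to -0.32 on vector and 0.083 to 0.27 with labelled RNAi. The summed level, in which the most counted genes weigh most, overlapped. It was 1183 to 1248 CPM on vector and 1190 to 1287 CPM with labelled bcat-1 RNAi. Of 40 tested embryonic genes, 3 were called higher (median 0.41), namely the homeobox genes ceh-27 (2.68 ± 0.28) and ceh-13 (1.31 ± 0.29) and the lipocalin gene lpr-3 (1.31 ± 0.33). With the block 16 of the 40 were called higher and 4 lower. The 44 listed had summed levels of 1754 to 2114 CPM on vector and 2155 to 2322 CPM with labelled bcat-1 RNAi. Of these 44, 4 had too few counts to be tested and were at 0 in at least 1 library (med-1, med-2, tbx-35 and sdz-23), and none was at 0 in every library. Of 28 oocyte and germline genes, none was called (median -0.65; 25 lower with the block). fbf-2, a gene of a Pumilio-family regulator of germline stem cells, had the smallest p (log2 change -0.86 ± 0.23, edgeR adjusted p = 0.0546). The list summed to 26747 to 31331 CPM on vector and 16962 to 21277 CPM with labelled RNAi. The part of these lists in the changes of the members was not tested.

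**Figure D4:**
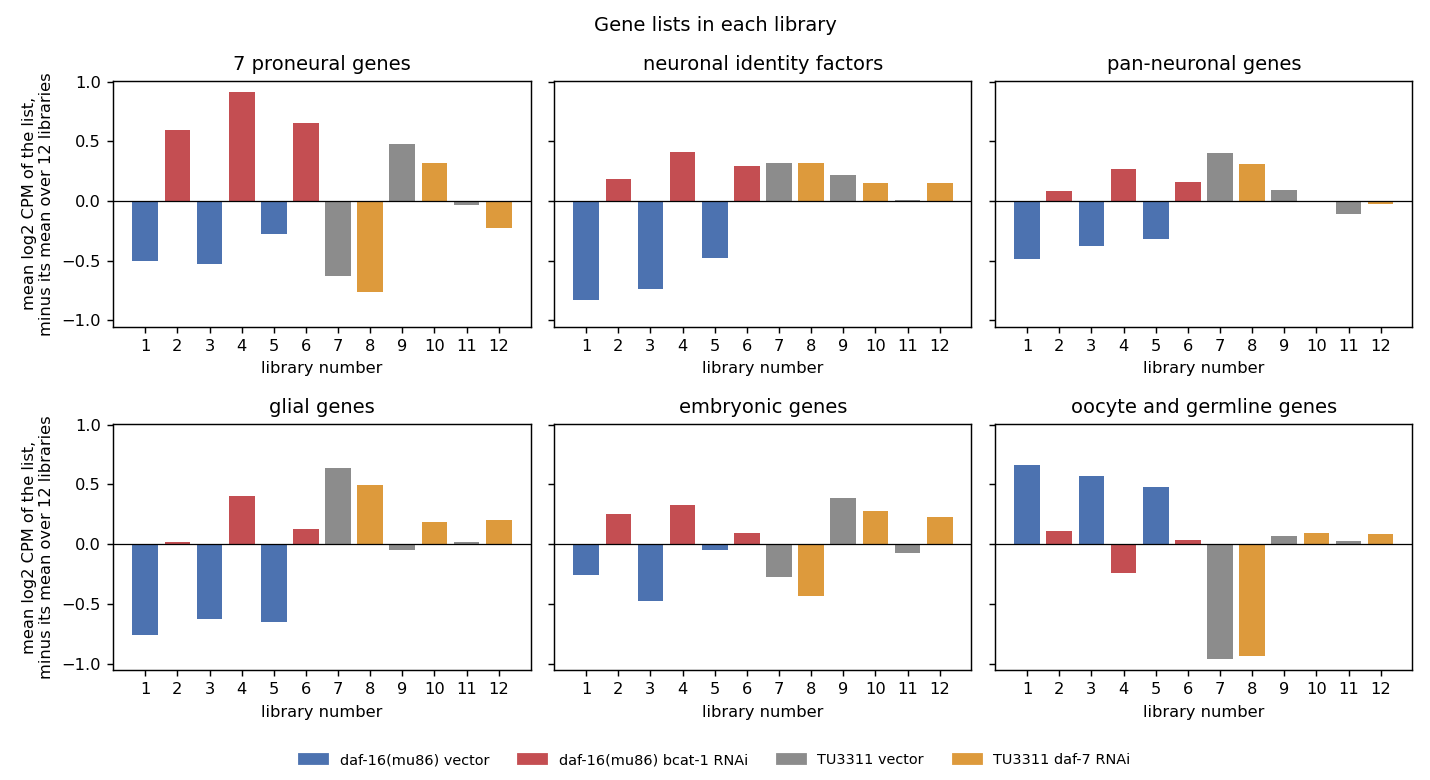
Mean log2 CPM of the tested genes of a list in each library, minus the mean over the 12 libraries (vertical axis), by library number (horizontal axis), with bars coloured by group. The 7 proneural genes are highest in libraries 2, 4 and 6 (labelled bcat-1 RNAi, 0.60 to 0.91) and lowest in 7 and 8 (-0.62 and -0.76), whereas the neuronal identity factors are above 0 in 7 and 8 and the oocyte and germline genes are lowest there.

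Markers of further tissues are given for the same comparison, where 4.18% of all genes were called higher (25.7% higher and 18.5% lower with the block). Of 10 glial genes tested, ptr-10 (log2 1.35 ± 0.27) and daf-6 (1.39 ± 0.32) were called higher with labelled bcat-1 RNAi (median 0.87, and 7 higher and 0 lower with the block). Of 19 epidermal genes, 4 were called higher (median 1.79), the collagen genes sqt-3, dpy-14 and dpy-17 and the hedgehog-related gene wrt-10. With the block 16 of the 19 were called higher and 0 lower. Of 20 muscle genes dys-1, the dystrophin gene, was called higher (0.77 ± 0.19, with a list median of 0.06). With the block 4 of the 20 were called higher and 1 lower. None of 24 sperm genes (median 1.24, and 5 higher with the block) or 15 intestinal genes (median 0.18, and 4 higher and 3 lower with the block) was called. The smallest p among them belonged to spe-9, a sperm surface protein gene (log2 change 0.87 ± 0.32, edgeR adjusted p = 0.133), and to asp-3, an aspartyl protease gene (0.70 ± 0.32, adjusted p = 0.229). Summed sperm genes stood at 6.58 to 12.4 CPM on vector and 9.34 to 31.6 CPM with labelled bcat-1 RNAi.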

How the data were processed

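The authors deposited whole-number counts per gene for 12 libraries of total RNA (TruSeq kit, per the labels). Per the submitters' processing notes, the tools were STAR 2.4.1d, featureCounts 1.4.6-p4 and bcl2fastq 1.8.4, with WBcel235 as build. The annotation release, strand setting and handling of reads with several positions are not given in the sources used here. Deposited RPKM values were not used.

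In R 4.3.3, edgeR 4.0.16 was fitted to all 4 groups and tested by quasi-likelihood (robust, two-sided), with TMM factors and the default expression filter, which left 8 residual degrees of freedom. The 4 groups shared 1 estimate of the spread of each gene. The SE and p-value of a comparison thus also carry the spread of libraries outside it, among them libraries 7 and 8. Of 46748 identifiers 16618 were tested, among them all 7 members. Called means a Benjamini-Hochberg adjusted p under 0.05 over all genes tested, and the threshold named in the text is that one. The SE of a log2 change is the change over the square root of F. CPM are counts divided by TMM-scaled library sizes, with a prior count of 2 on the log2 scale. DESeq2 1.42.0, limma 3.58.1 voom, other scalings, other sets of libraries and each replicate left out were alternatives, and 1 more (the block with only the 6 libraries compared) was added after the data were seen. Names, coordinates and exon lengths come from annotation release 115 of WBcel235, which may differ from the one used for counting. The fit was tested on simulated data.

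The labels number libraries from 1 to 12 and state no pairing. Deviations from group means correlated in neighbouring numbers at 0.398, 0.284 and 0.158 in daf-16(mu86) and at 0.892, 0.777 and 0.504 in TU3311, so that these pairs served as the block. The pairing thus comes from the values.

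The members and gene lists were chosen with earlier results of these data known. Named are all members, up to 4 called genes of each other list with the smallest p (or the 1 with the smallest p where none was called), and the 3 genes most correlated with each member. The embryonic genes at 0 counts were named after their values were seen.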

Additional observations from a re-analysis of the deposited data

Results flagged for a closer look

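Of the 7 members, 4 had CPM that were higher in the library labelled bcat-1 RNAi in all 3 pairs of daf-16(mu86) and lower in the library labelled daf-7 RNAi in all 3 pairs of TU3311, a pattern shared by 6.31% of all genes tested. No member passed the test within TU3311. They were ngn-1, with a difference between the log2 changes of 1.95, lin-32 (2.19), hlh-3 (0.88) and hlh-4 (0.81). By edgeR the test of that difference passed for none of them (adjusted p = 0.259, 0.141, 0.435 and 0.449), and with the pairs as a block it passed for the first 3 (0.00334, 0.00335 and 0.0226) and not for hlh-4 (0.107). For lin-32 one TU3311 pair, libraries 9 and 10, was level at 2.18 CPM in each, so that its direction there cannot be read. The pairs themselves were read from the values, not from the labels. Groups of 3 libraries were too small for a search for outlying samples.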

How the results depend on the processing

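With labelled bcat-1 RNAi, 2 members were called; 1 was with RLE factors, 3 with library totals (ngn-1 added, adjusted p = 0.0461), 5 with only the libraries compared, 5 without libraries 7 and 8, 5 with the replicate block, 5 with the block and only the libraries compared, and 1 with any replicate left out (1 to 1), namely cnd-1. Genes called numbered 718, against 330 with RLE factors, 1150 with library totals, 6116 with only the libraries compared, 5896 without libraries 7 and 8, 7356 with the block, 6407 with the block and only those libraries, and 45 to 324 with a replicate left out. For the difference between the responses, 0 members and 18 genes were called; library totals, no filter and DESeq2 each called 1 member, the fits without libraries 7 and 8 and with the block 5 each, and leaving out a replicate 0 to 1. The genes then numbered 2 with upper-quartile factors, 40 with no filter, 128 with DESeq2, 2187 without libraries 7 and 8, 4349 with the block and 0 to 88 with a replicate left out. Between strains, 0 members and 1103 genes were called; 2 members each with upper-quartile factors and library totals, 1 each with no filter and DESeq2, 3 without libraries 7 and 8, and 0 to 1 with a replicate left out. The genes numbered 256 with RLE factors, 1897 with upper-quartile factors, 2883 with library totals, 4745 with DESeq2 (3145 higher and 1600 lower, against 22 and 1081 by edgeR), 498 with limma voom, 526 with only the libraries compared, 5194 without libraries 7 and 8 (2605 higher and 2589 lower) and 30 to 1271 with a replicate left out. With labelled daf-7 RNAi, 0 members were called in every setting run, and 0 genes, against 1 with RLE factors, 1 with no filter, 3 with DESeq2, 1 without libraries 7 and 8, 1 with the block and 0 to 1 with a replicate left out. Leaving out a library lowers the residual degrees of freedom and also changes the estimate of spread that the groups share. Why the counts moved between settings was not tested. The split of calls with labelled bcat-1 RNAi was 694 higher and 24 lower, against 4275 and 3081 with the block, 3455 and 2441 without libraries 7 and 8, 3628 and 2488 with only the libraries compared, and 572 and 228 with DESeq2.

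Signs of log2 changes turned only for values that were not called. hlh-2 with labelled bcat-1 RNAi turned to 0.015 with library totals. Between strains, with upper-quartile factors, library totals and without libraries 7 and 8 in turn, hlh-14 stood at -0.21, -0.19 and -0.30, hlh-2 at -0.031, -0.016 and -0.10, and hlh-3 at -0.049, -0.029 and -0.042; with a replicate left out they ranged from -0.30 to 0.44, -0.11 to 0.59 and -0.045 to 0.50. With labelled daf-7 RNAi, cnd-1 was at 0.0082 by limma voom, and with a replicate left out cnd-1 ranged from -0.35 to 0.35, hlh-14 from -0.61 to 0.22, hlh-2 from -0.21 to 0.48, hlh-3 from -0.49 to 0.050, lin-32 from -0.90 to 0.092 and ngn-1 from -0.91 to 0.19. The difference of hlh-2 between the responses ranged from -0.67 to 0.019. The strain comparison has no block, since pairs lie within strains. Depth limits hlh-4 most, at 11 to 34 counts per library.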

Other observations

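Neuronal lists on vector are given for daf-16(mu86) against TU3311, where 6.5% of all genes were called lower and 0.132% higher. Of 38 neuronal identity factors 13 were called lower and none higher (median log2 difference -1.08, where that of all genes was -0.38), among them nhr-67 (-1.33 ± 0.26), unc-42 (-1.41 ± 0.30), zag-1 (-1.17 ± 0.25) and unc-86 (-1.21 ± 0.28; edgeR adjusted p = 0.0186 to 0.0292). Of 11 touch receptor neuron genes 4 were called lower, mec-12 (-1.14 ± 0.26), mec-7 (-1.07 ± 0.26), mec-9 (-1.37 ± 0.38) and mec-2 (-1.23 ± 0.34). Of 24 pan-neuronal genes 3 were called lower, unc-10 (-1.03 ± 0.26), ida-1 (-0.99 ± 0.25) and snt-1 (-1.28 ± 0.33). With only the 6 vector libraries in the fit, 1, 0 and 0 genes of these 3 lists were called lower, and without libraries 7 and 8 they were 17, 7 and 11, where 15.7% of all genes were called lower. Low medians were not limited to neuronal lists. The median log2 difference was -0.82 for glial genes (2 of 10 called lower) and -0.71 for muscle genes (4 of 20). For epidermal genes it was -0.74 (0 of 19), for sperm genes -2.58 (1 of 24) and for intestinal genes -0.33 (2 of 15). Embryonic genes had -0.42 (1 of 40), and oocyte and germline genes 0.88 (0 of 28). Of these 28, 25 were higher without overlap, where 25.8% of all genes were. Without libraries 7 and 8, 23 of the 28 were called higher and none lower, where 15.8% of all genes were called higher. That fit called 10 of the 40 embryonic genes lower and 1 higher. It called 3 glial, 6 muscle, 1 epidermal, 2 sperm and 2 intestinal genes lower, and 1 muscle gene higher. The daf-16(mu86) vector libraries are shared with the comparison of bcat-1 RNAi.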
